A study of Mus musculus with 38 samples.

Results

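Egr1, Egr2, Egr3 and Egr4 encode the early growth response factors, a small family of C2H2 zinc finger transcription factors. They were taken by name from 22375 genes with a coding transcript, of which 20877 had a 5′ UTR, and all 4 had both. Footprints of the longest transcript of each gene were followed across the 14 groups of the series, with counts scaled to the CDS total of each library as CPM.

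Egr genes are immediate early genes, transcribed within minutes of synaptic activity, growth factors or membrane depolarization without new protein synthesis. Their promoters are known to answer to serum response factor and its ternary complex partners, which bind CArG boxes, and to CREB. Egr proteins bind GC-rich sites through their zinc fingers, and the corepressors Nab1 and Nab2 restrain Egr1, Egr2 and Egr3. Egr1 is linked to lasting synaptic plasticity, Egr2 to hindbrain segmentation and myelination by Schwann cells, and Egr3 to muscle spindle development. Egr4 is linked to male fertility.

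The series used PL-Ribo-seq, in which a biotin ligase labels complexes around it and ribosome footprints are read from the input and from the streptavidin pulldown of each culture. Cortical neurons were prepared from CD-1 mouse embryos at E14.5 and carried a doxycycline-inducible lentivirus for TurboID-PSD95, a ligase placed in dendrites by elements of the PSD95 transcript, or for Pan-TurboID, without a localization signal. The labels give 30 min of biotin and 2 min of cycloheximide, which stalls ribosomes, for each library, while the methods give a shorter time in biotin after DHPG. Per the methods, the cycloheximide was given before the biotin. Its part in where footprints lay was not tested. The KCl experiment held 24 libraries, with 3 inputs and 3 pulldowns of each bait at rest and as many after depolarization, for which 55 mM KCl was given for 1 h. The depolarized neurons had been silenced with TTX and DL-AP5 beforehand and rested in fresh medium with both after KCl. Whether resting neurons received these silencers is not settled by the sources used here, so the comparisons with rest may hold their effect too. The DHPG experiment held 3 inputs and 3 pulldowns of TurboID-PSD95 neurons given 100 µM DHPG for 10 min after TTX and DL-AP5. DHPG activates metabotropic glutamate receptors of group I. The knockdown experiment held 8 TurboID-PSD95 libraries, 2 in each of 4 groups, from resting and depolarized neurons given 20 nM siRNA against eIF4G2, an initiation factor, for 72 h. Control siRNA cultures were not analysed here. The study describes its replicates as biologically independent, with resting and activated samples of a replicate processed together, and the labels number them without further detail.

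Libraries held 5906281 to 35643247 counted footprints, with 2047169 to 14636019 in coding sequences of the transcripts used. Dlg4, whose elements the bait carries, stood at 337.6 to 5224 CPM in TurboID-PSD95 pulldowns of the KCl experiment and at 15.72 to 50.15 CPM in Pan-TurboID pulldowns. Eif4g2 stood at 204.9 to 337.6 CPM in the knockdown libraries and at 335.1 to 811.4 CPM in the KCl experiment. The summed level of 8 neuronal markers was 4908 to 10580 CPM in the KCl and knockdown experiments and 8203 to 8977 CPM after DHPG. The summed level of 7 astrocyte markers was 310.2 to 984.3 CPM in the KCl experiment and 90.67 to 99.44 CPM after DHPG. The study describes its cultures as free of non-neuronal cells by immunostaining and by transcriptomic analyses. In footprints from whole cultures, fewer cells of a type and fewer ribosomes on its mRNA cannot be told apart.

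The 4 genes lie on different chromosomes of mm10 and overlap no other annotated gene. Egr1 lies at chr18:34859823-34864984 on the plus strand, Egr2 at chr10:67537869-67542188 on the plus strand, Egr3 at chr14:70077314-70082550 on the plus strand and Egr4 at chr6:85511121-85513589 on the minus strand.

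Each coding sequence is split over 2 exons, of which the first is short, with 298 nt in Egr1, 169 nt in Egr2, 154 nt in Egr3 and 133 nt in Egr4. The annotated 5′ UTR of the transcript used measured 1666 nt in Egr1, 352 nt in Egr2, 131 nt in Egr3 and 192 nt in Egr4. Another Egr3 transcript has a 5′ UTR that starts further upstream, at chr14:70077203, and takes in the first coding exon used here. Footprints upstream of the start used here were not counted. Egr3 values in the 5′ UTR and in the first coding exon rest on this choice, and no alternative tested it. In Egr1, 246 nt in 2 pieces that make up the 5′ UTR of a shorter transcript and end at the start codon held 81% to 94.3% of its 5′ UTR footprints over the 38 libraries.

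The zinc finger exons resemble each other, which bears on how footprints can be assigned. No 25-nt window, the shortest footprint counted, was shared by the coding sequence of Egr1 with those of the other members. Egr2 and Egr3 shared 25 such windows, Egr3 and Egr4 shared 17 and Egr2 and Egr4 shared 5, so that reads from these windows are uncertain. The longest stretch found in Egr2, Egr3 and Egr4 alike measured 29 nt. It lies in the second coding exon, at chr10:67540653-67540681 on the plus strand in Egr2, at chr14:70079633-70079661 on the plus strand in Egr3 and at chr6:85511866-85511894 on the minus strand in Egr4. It is shown because a footprint lying wholly within it has no single source, and it is in lower case throughout since no base differs.
Egr2, Egr3 and Egr4 CDS: atccacacgggccacaagcccttccagtg

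Promoter windows from RefSeq (GRCm38.p6, 250 bases before to 50 after a start) were at hand for Egr2, with 5 starts, and for Egr4, with 1 start. They are shown because KCl raised both genes and because CArG boxes and TGACG elements are the letters read by serum response factor and by CREB. A CArG box, searched by that name on both strands, was found in 4 of 5 Egr2 windows and in 1.63% of 32817 promoters of the same length. It was absent from the Egr4 window. The Egr2 windows belong to 1 gene and can share a box, so they are not separate promoters. The element TGACG, on either strand, was found in 3 of 5 Egr2 windows, in the Egr4 window and in 20.8% of all promoters. The full element TGACGTCA, which contains it, and the Egr sites GCGGGGGCG or GCGTGGGCG were absent from both genes' windows and present in 1.79% and 3.47% of all promoters. Capitals mark the CArG box or, read from the other strand, TGACG.
Egr2, chr10:67537484-67537513, plus strand, box 72 nt before an upstream start: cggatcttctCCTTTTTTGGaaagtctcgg
Egr2, chr10:67537787-67537816, plus strand, box 72 nt before the start used here: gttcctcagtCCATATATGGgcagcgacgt
Egr4, chr6:85513681-85513710, minus strand, 109 nt before the start: tttggtcatttaCGTCAcggcgccagggcc
Egr4, chr6:85513749-85513778, minus strand, 177 nt before the start: cggcggcagcaaCGTCAcaggccgagcttt
These matches describe the windows and do not show that a factor was bound.

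Depolarization raised footprints in the coding sequence of all 4 Egr genes, in inputs and in pulldowns of both baits. Egr1, the most abundant member per kb of coding sequence in the KCl experiment, stood at 174.2, 159.7 and 278.3 CPM in the resting TurboID-PSD95 inputs and at 1905, 2868 and 2468 CPM in the depolarized ones. In the Pan-TurboID inputs it stood at 149.3, 181 and 222 CPM at rest and at 1908, 2388 and 2122 CPM after KCl. The depolarized inputs were all above the resting inputs, with no overlap.

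Egr2 was the scarcest member per kb at rest and moved most. Its resting TurboID-PSD95 inputs held 4.84, 13.94 and 8.061 CPM, from 31 to 73 footprints a library, and its depolarized ones held 182, 196 and 192.9 CPM. The Pan-TurboID inputs held 6.451, 7.486 and 9.453 CPM at rest and 225, 150.4 and 194.2 CPM after KCl. The resting TurboID-PSD95 inputs had an SD of 4.616 CPM around a mean of 8.948 CPM. The depolarized ones had an SD of 7.362 CPM around a mean of 190.3 CPM (n = 3 each). With Pan-TurboID the SD was 1.525 CPM around 7.797 CPM at rest and 37.49 CPM around 189.9 CPM after KCl. The spread was thus narrower after KCl, relative to the mean, with TurboID-PSD95 alone.

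Egr3 moved least of the 4. It was measured at 12.06, 12.99 and 13.52 CPM in the resting TurboID-PSD95 inputs and at 40.07, 78.25 and 71.17 CPM in the depolarized ones. The Pan-TurboID inputs gave 13.41, 9.908 and 13.8 CPM at rest and 39.88, 50.38 and 54.7 CPM after KCl. The lowest depolarized library was replicate 1 with either bait, and still lay above the resting inputs.

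Egr4 came next to Egr1 in level per kb. It stood at 23.2, 46.99 and 49.93 CPM in the resting TurboID-PSD95 inputs and at 211.9, 362.7 and 305.1 CPM in the depolarized ones. With Pan-TurboID it stood at 23.53, 21.14 and 41.9 CPM at rest and at 185.6, 282.8 and 211.5 CPM after KCl. Resting and depolarized inputs did not overlap for this gene either.

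**Figure D1:**
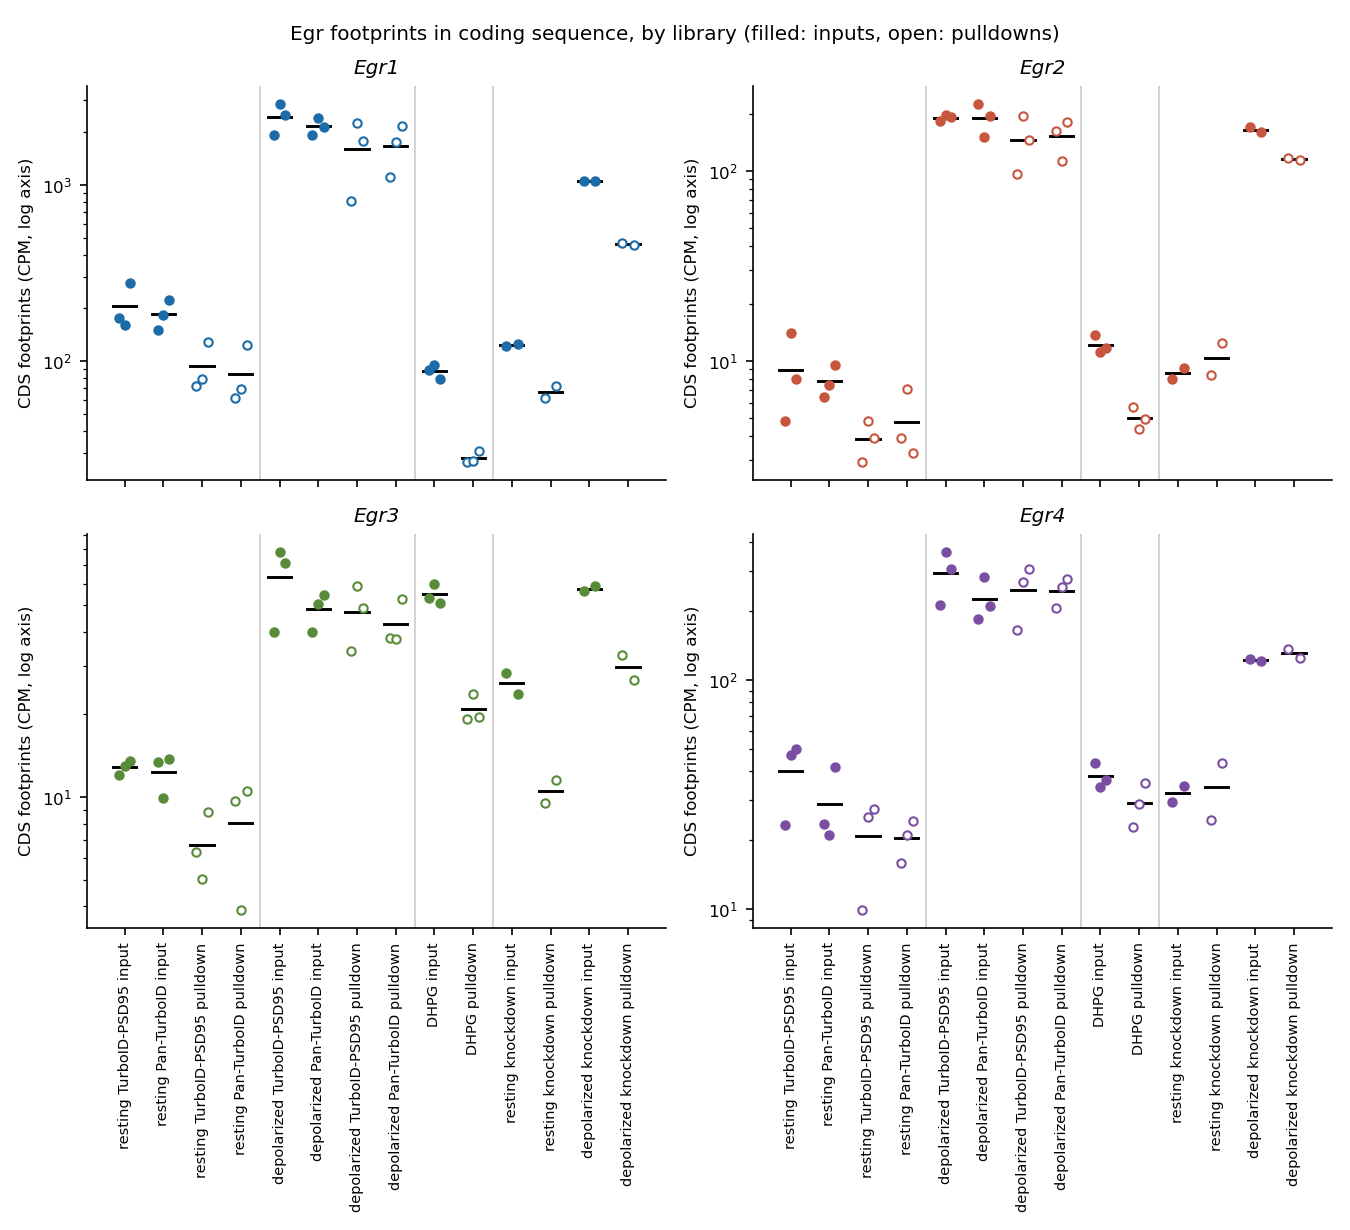
CDS footprints of the 4 Egr genes in the 38 libraries, in CPM on a log axis, by group, with inputs as filled points, pulldowns as open points and group means as bars. Grey lines part resting, depolarized, DHPG and knockdown groups, and the Egr1 group means run from 28.23 CPM in DHPG pulldowns to 2414 CPM in depolarized TurboID-PSD95 inputs.

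Pulldowns followed the same pattern at lower resting levels. With TurboID-PSD95, Egr1 pulldowns held 71.76, 79.39 and 128.5 CPM at rest and 809.5, 2225 and 1756 CPM after KCl. Egr2 pulldowns held 2.937, 4.805 and 3.908 CPM at rest, from 8 to 23 footprints a library, and 95.84, 193.9 and 144.7 CPM after KCl. Replicate 1 was the lowest of the depolarized pulldowns of this bait for all 4 genes. Egr3 pulldowns gave 6.294, 5.014 and 8.793 CPM at rest and 34.05, 58.99 and 48.85 CPM after KCl. Egr4 pulldowns gave 9.931, 25.28 and 27.35 CPM at rest and 164.9, 268.6 and 306.2 CPM after KCl. With Pan-TurboID, pulldown means at rest and after KCl were 84.42 and 1665 CPM for Egr1, 4.76 and 152 CPM for Egr2, 8.013 and 42.75 CPM for Egr3, and 20.37 and 246 CPM for Egr4 (n = 3 each). For each gene and bait the resting and depolarized pulldowns did not overlap.

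All 4 genes passed the test in inputs, where 6.32% of 13003 genes rose (edgeR quasi-likelihood test, Benjamini-Hochberg FDR 0.05). Over both baits the log2 fold change of Egr2 was 4.57 ± 0.256 (SE, 23.7-fold, adjusted p = 2.87e-12), with the smallest p of all genes and rank 2 by fold change. Egr1 rose by 3.58 ± 0.245 (12-fold, adjusted p = 2.17e-10) and ranked 7. Egr4 rose by 2.96 ± 0.255 (7.78-fold, adjusted p = 8.2e-09) and ranked 20, and Egr3 rose by 2.17 ± 0.211 (4.49-fold, adjusted p = 3.76e-08) and ranked 49. The median of all genes was -0.01. In each bait and fraction, the depolarized library was above the resting library of its number in 3 of 3 cases for each gene.

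In TurboID-PSD95 pulldowns 4 of 4 rose, against 3.3% of all genes, with log2 fold changes of 4.12 ± 0.358 for Egr1, 5.26 ± 0.395 for Egr2, 2.90 ± 0.324 for Egr3 and 3.62 ± 0.378 for Egr4. In Pan-TurboID pulldowns 4 of 4 rose, against 1.88% of all genes, with 4.33 ± 0.36, 5.13 ± 0.374, 2.42 ± 0.301 and 3.64 ± 0.37 in the same order. Adjusted p-values in pulldowns ran from 8.59e-10 to 7.23e-06 for these 8 results. Egr2 led and Egr3 trailed in each fraction.

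Markers of cell types moved in part with KCl. Of 8 neuronal markers 2 fell, where 9.02% of all genes did, Tubb3, a tubulin, at -0.66 ± 0.225 and Rbfox3, the antigen NeuN, at -0.68 ± 0.183. Of 7 oligodendrocyte markers tested in inputs 0 passed in edgeR, 4 had an unadjusted p below 0.05 and DESeq2 called 1 lower, with a median log2 fold change of -1.03. Their summed level was 243.9 to 608.6 CPM in resting inputs (median 516.8) and 162 to 415.8 CPM in depolarized ones (median 211.5), with Mog at 0 in both. Of 5 endothelial and fibroblast markers and 6 astrocyte markers tested, 0 passed in edgeR or DESeq2 or at an unadjusted p below 0.05, with medians of -0.70 and -0.18. The endothelial and fibroblast sum had a median of 431.6 CPM at rest (276.4 to 489.5) and of 229.6 CPM after KCl (117.2 to 555.9), and the astrocyte sum ran from 310.2 to 808.3 and from 314.2 to 881.5 CPM. Microglia markers were too low to be tested, at 1.3 to 3.82 and 1.279 to 5.741 CPM in sum. The part of these markers in the Egr response was not tested.

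The knockdown experiment shares no library with the KCl experiment, and KCl raised the 4 genes there too. In its inputs 4 of 4 rose, against 8.91% of 12223 genes, by 3.10 ± 0.097 for Egr1, 4.26 ± 0.196 for Egr2, 1.16 ± 0.232 for Egr3 and 1.94 ± 0.191 for Egr4 (log2, SE). In its pulldowns 4 of 4 rose, against 10.2% of genes, by 2.80 ± 0.107, 3.54 ± 0.218, 1.54 ± 0.286 and 2.01 ± 0.207. The order Egr2, Egr1, Egr4, Egr3 held in the 5 comparisons.

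**Figure D2:**
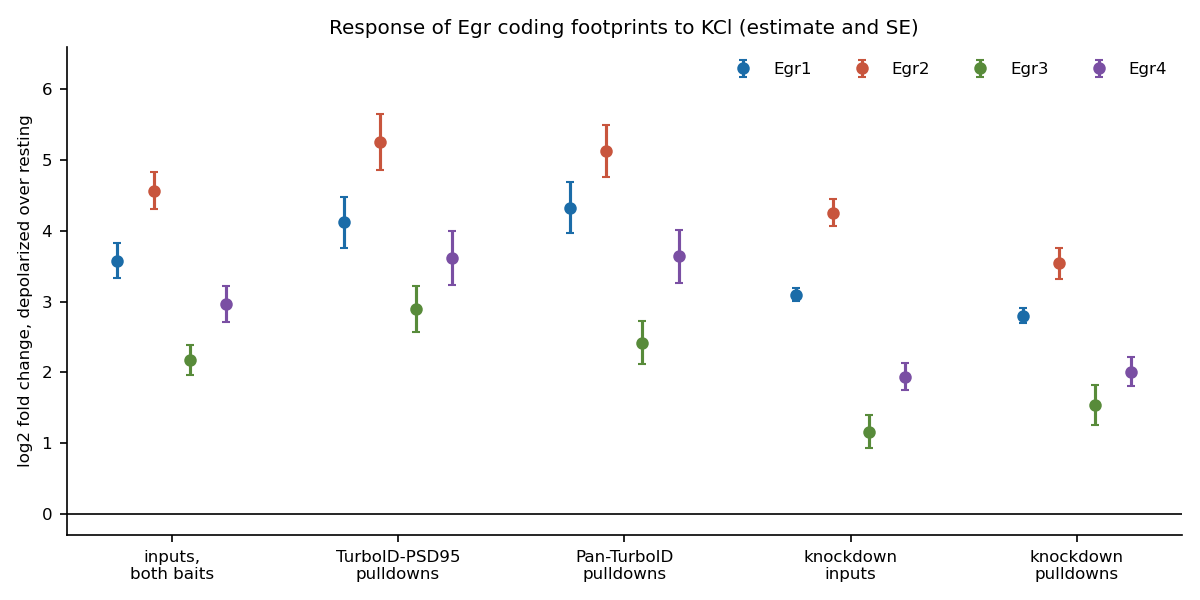
Log2 fold change of CDS footprints, depolarized over resting, for the 4 Egr genes in inputs of both baits, in pulldowns of each bait and in the knockdown experiment, with standard errors as bars. Estimates run from 1.16 for Egr3 in knockdown inputs to 5.26 for Egr2 in TurboID-PSD95 pulldowns.

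The make-up of the family differed between rest and KCl. Per kilobase of coding sequence, the mean over resting inputs of both baits was 121.1 CPM for Egr1, 23.97 CPM for Egr4, 10.84 CPM for Egr3 and 5.925 CPM for Egr2 (n = 6). After KCl the means were 1421, 180.9, 47.89 and 134.5 CPM per kb, so that Egr2 passed Egr3. The order Egr1, Egr4, Egr3, Egr2 was seen in each of the 3 resting TurboID-PSD95 inputs, and Egr1, Egr4, Egr2, Egr3 in each of the 3 depolarized ones. With Pan-TurboID the resting inputs had the same order in each library, but in depolarized replicate 1 Egr2 lay above Egr4, at 159.3 against 129.2 CPM per kb. Egr1 made up 73.8% of the family's summed level per kb in resting TurboID-PSD95 inputs and 79.3% in depolarized ones, Egr3 6.4% and 2.86%, and Egr2 3.67% and 7.09%.

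Footprints in 5′ UTRs, where ribosomes can translate upstream reading frames, rose as well, but less for Egr1 and Egr2 than in their coding sequences. In inputs 3 of 4 rose, against 0.442% of 10175 genes, by 1.87 ± 0.367 for Egr1 (adjusted p = 0.00125), 2.85 ± 0.394 for Egr2 (4.79e-07) and 2.80 ± 0.403 for Egr4 (1.09e-06), and Egr3 stood at 1.91 ± 0.505 (0.0639). Egr3 passed with the replicate number as a block, at 1.93 ± 0.453 (0.00651), with RLE factors (0.0397), with the likelihood ratio test (0.00663) and with DESeq2 (0.000739). The Egr1 call in inputs was lost without replicate 2 (adjusted p = 0.182) and without replicate 3 (0.0688). In TurboID-PSD95 pulldowns 3 of 4 rose, against 0.275% of genes, with 2.44, 3.17 and 3.72 for Egr1, Egr2 and Egr4 and 1.62 for Egr3 (adjusted p = 0.343, rank 1008). In Pan-TurboID pulldowns 3 of 4 rose, against 0.128%, with 2.53, 3.71 and 3.48, and Egr3 at 1.85 (0.839). The median over all genes was 0.17 in inputs and 0.65 and 0.28 in pulldowns of TurboID-PSD95 and Pan-TurboID. The 5′ UTRs of Egr1, Egr2, Egr3 and Egr4 hold 11, 1, 2 and 0 upstream ATG codons. For Egr1 this covers all 1666 nt, while 81% to 94.3% of its 5′ UTR footprints lay in 246 nt. How many of its ATG codons lie in those 246 nt was not counted. These counts rest on 5′ ends of footprints with no offset, which places ribosomes on the first codons in the 5′ UTR. Without replicate 3, 0 of 4 passed in pulldowns of either bait, and without replicate 2 the counts were 0 and 1.

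The share of footprints that fell in the 5′ UTR, out of 5′ UTR and CDS together, dropped after KCl for Egr1 and Egr2. Egr1 had 53.18%, 56.14% and 58.66% in resting TurboID-PSD95 inputs and 47.79%, 50.24% and 63.26% in resting Pan-TurboID inputs. After KCl it had 26.05%, 28.87% and 29.4% and, with Pan-TurboID, 20.52%, 31.05% and 31.6%. The 6 depolarized inputs all lay below the 6 resting inputs. The mean fell from 54.88% ± 5.669 to 27.92% ± 4.116 (SD, n = 6 each), a difference of -26.96 points (exact permutation test over 924 regroupings, two-sided p = 0.002165, the smallest it can give, 0.005772 after adjustment over 8 tests).

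Egr2 gave 63.16%, 60.11% and 69.31% in resting TurboID-PSD95 inputs and 45.74%, 45.16% and 51.95% in resting Pan-TurboID inputs. Its depolarized inputs gave 27.26%, 34.38% and 30.99%, and 20.07%, 27.73% and 30.68% with Pan-TurboID. Again no depolarized input reached a resting one. The means were 55.9% ± 9.841 and 28.52% ± 4.873, a difference of -27.39 points (exact permutation test, adjusted p = 0.005772, and 0.02469 when regrouped only within replicate numbers).

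For Egr3 and Egr4 the shares at rest and after KCl overlapped and no difference passed the test. Egr3 had means of 23.2% ± 4.049 at rest and 21.16% ± 7.32 after KCl (exact permutation test, adjusted p = 0.6775), and Egr4 had 42.01% ± 7.032 and 40.13% ± 6.318 (0.6775; SD, n = 6). In pulldowns the difference was -26.72 points for Egr1 (exact permutation test, adjusted p = 0.005772), -25.46 for Egr2 (0.008658), -8.251 for Egr3 (0.1732) and -2.034 for Egr4 (0.6775). Regrouped only within replicate numbers, the exact permutation test gave an adjusted p of 0.02469 for Egr1 and 0.03704 for Egr2. For Egr3 the mean in pulldowns was 18.17% at rest and 9.918% after KCl. Leaving out a replicate moved that difference between -12.5 and -4.28 points, and without replicate 3 its groups lay apart (exact permutation test, adjusted p = 0.05714). The Egr1 pulldowns did not overlap and those of the other 3 genes did. For Egr2 the resting pulldown shares ran from 24.39% to 61.82%. Its pulldowns rest on few footprints and did not reach the count minimum used below. Within 1 bait, 3 libraries against 3 cannot give a p under 0.1, and the differences in inputs were -27.88 and -26.04 points for Egr1 and -33.32 and -21.46 points for Egr2 with TurboID-PSD95 and Pan-TurboID.

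Over 9051 genes with at least 20 footprints in both regions together in each input, the median change of the share was +1.432 points and 34.23% of genes had a lower share after KCl. Egr2 and Egr1 ranked 1 and 2 from the lowest among them, and Egr3 and Egr4 ranked 1619 and 1690. The median resting share of these genes was 20.15%, against 55.9% for Egr2 and 54.88% for Egr1. A share can fall by no more than its resting value, so most of these genes could not reach such a drop. In pulldowns Egr1 ranked 1 and Egr4 716 of 8081 genes, while Egr2 and Egr3 did not reach the count minimum. There 25.7% of genes had a lower share, and the median resting share was 7.218%, against 45.6% for Egr1. Depolarized replicate 1 had the lowest Egr1 share in each bait and fraction, 9.478% to 26.05%, and these 4 libraries had among the fewest CDS footprints, 2055596 to 3181082. Without replicate 1 the difference for Egr1 was -26.84 points in inputs and -25.76 points in pulldowns.

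Within the coding sequence, the first coding exon held more of the resting input footprints of each Egr gene, by the mean, than its part of the length, and its share fell after KCl in Egr1 and Egr2 inputs and in Egr1 and Egr4 pulldowns. This measure was chosen after the counts per exon had been seen. The first exon holds 18.6% of the Egr1 coding sequence, and it held 64.81%, 60.29% and 67.2% of the CDS footprints in resting TurboID-PSD95 inputs and 54.58%, 48.54% and 65.71% in Pan-TurboID inputs. After KCl it held 21.87%, 23.84% and 24.97%, and 21.99%, 24.32% and 24.8%. For Egr1 the depolarized inputs lay a little above the exon's part of the length, and the resting inputs all lay far above it.

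The first exon holds 12% of the Egr2 coding sequence and had 40.29% ± 16.45 of its CDS footprints in resting inputs and 10.14% ± 2.319 in depolarized ones. For Egr3, with 13.2% of the length, the means were 27.46% ± 16.18 and 14.85% ± 6.164, and for Egr4, with 9.26%, they were 36.12% ± 10.14 and 28.22% ± 4.582 (SD, n = 6). The differences in inputs were -36.56 points for Egr1 and -30.14 points for Egr2 (exact permutation tests, adjusted p = 0.005772 each over 8 tests), -12.6 for Egr3 (0.09812) and -7.907 for Egr4 (0.1336). In pulldowns they were -33.87 for Egr1 (exact permutation test, adjusted p = 0.005772), -14.23 for Egr2 (0.07619), -10.07 for Egr3 (0.1861) and -15.92 for Egr4 (0.03896). Regrouped only within replicate numbers, exact permutation tests gave an adjusted p of 0.02469 for Egr1 in either fraction and for Egr2 in inputs. For Egr4 in pulldowns that test gave 0.03704. Leaving out a replicate, the pulldown differences ran from -35.9 to -32.7 points for Egr1, from -22.9 to -7.54 for Egr2, from -16.9 to -1.01 for Egr3 and from -21.4 to -9.46 for Egr4. Over 7673 genes in inputs the median change was +2.23 points and 21.13% of genes had a lower share. Among these genes Egr1, Egr2, Egr3 and Egr4 ranked 1, 2, 29 and 94 from the lowest. Their mean resting shares were 60.19%, 40.29%, 27.46% and 36.12%, against a median of 14.38% over these genes. Most genes thus had less room to fall.

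By region, the mean level in Egr1 inputs was 3.611-fold higher after KCl in the 5′ UTR, 4.559-fold in the first coding exon and 22.99-fold in the second. For Egr2 the folds were 6.601, 6.03 and 32.74, for Egr3 3.645, 2.46 and 5.162, and for Egr4 6.96, 6.319 and 8.191. In pulldowns they were 5.578, 7.29 and 32.94 for Egr1, 10.56, 13.71 and 39.3 for Egr2, 3.406, 2.659 and 7.272 for Egr3, and 11.98, 6.656 and 14.24 for Egr4. The second exon had the highest fold for each gene in both fractions, by the widest margin for Egr1 and Egr2. The 3 regions of Egr4 lay close in inputs, and in pulldowns its first exon was lower than the others. These folds are ratios of means, with no test.

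**Figure D3:**
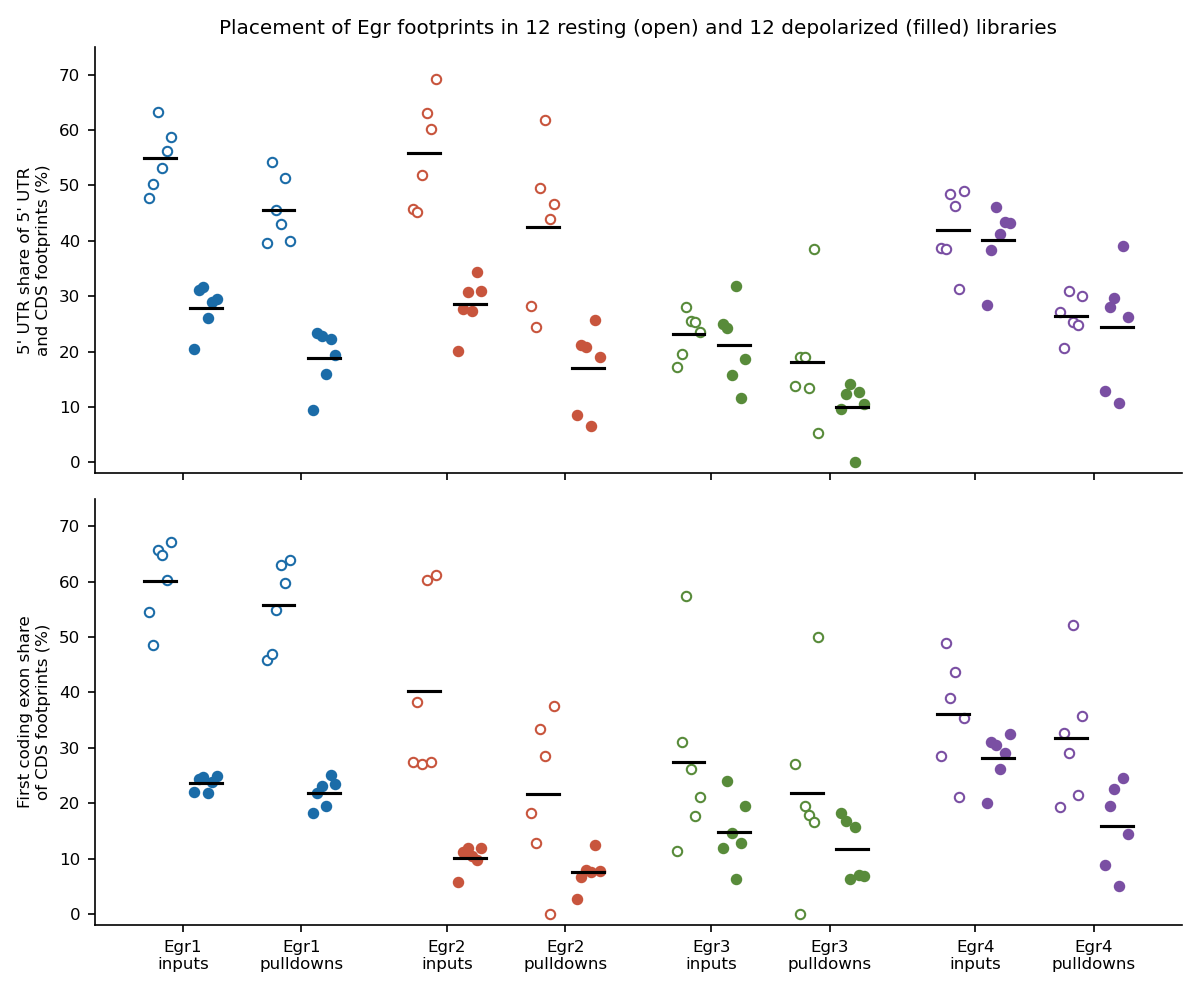
Share of footprints in the 5′ UTR, out of 5′ UTR and CDS (upper panel, percent), and share of CDS footprints in the first coding exon (lower panel, percent), by gene and fraction, in the KCl experiment, with resting libraries open, depolarized libraries filled and bars for means of 6. In Egr1 and Egr2 inputs the 2 conditions do not overlap in either panel, and mean 5′ UTR shares fall from 54.88% to 27.92% and from 55.9% to 28.52%.

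In inputs of the DHPG and knockdown experiments the shares of Egr1 lay between the means of resting and depolarized inputs of the KCl experiment. It had a 5′ UTR share of 46.54% to 51.41% in DHPG inputs, of 48.52% and 41.77% in resting knockdown inputs and of 32.97% and 37.44% in depolarized ones. Its first coding exon held 39.61% to 43.23%, 44.59% and 35.4%, and 25.93% and 27.74% in these groups. For Egr2 the 5′ UTR share was 45.83% and 50.68% in resting knockdown inputs and 32.68% and 34.53% in depolarized ones. Its first coding exon held 23.08% and 26.39% in resting knockdown inputs and 6.891% and 8.47% in depolarized ones. In the knockdown experiment too, the depolarized inputs lay below the resting ones for both genes and measures, with 2 libraries a group and no test. Egr4 went the other way there, with 5′ UTR shares of 36.67% and 29.53% at rest and 46.15% and 48.61% after KCl, and first exon shares of 16.84% and 22.06% and of 23.53% and 25.9%. Egr3 overlapped in its 5′ UTR share, at 16.44% and 23.77% and at 17.49% and 14.01%. In knockdown pulldowns the 5′ UTR share of Egr2 overlapped too, at 30.91% and 12.12% at rest and 12.57% and 18.03% after KCl. The 5′ UTR share in DHPG inputs was 7.872% to 11.09% for Egr3 and 25.08% to 27.96% for Egr4. Both lay below the resting inputs of the KCl experiment, at 17.19% to 28% and 31.28% to 48.94%, with no test.

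Pulldowns held fewer Egr footprints than their inputs at rest. With TurboID-PSD95, 3 of 4 genes were lower in the pulldown, against 13.5% of all genes, with log2 fold changes of -1.11 ± 0.323 for Egr1 (adjusted p = 0.0168), -1.16 ± 0.397 for Egr2 (0.0348) and -0.96 ± 0.323 for Egr3 (0.0324), and Egr4 stood at -0.93 ± 0.359 (0.0576). Egr4 passed with DESeq2 (adjusted p = 0.0369), the likelihood ratio test (0.039) and the replicate number as a block (0.00611). With Pan-TurboID, 1 of 4 was lower, against 5.01% of genes, and this was Egr1 at -1.07 ± 0.32 (0.0404), with Egr2 at -0.73, Egr3 at -0.53 and Egr4 at -0.44. In each of the 3 cultures of either bait the 4 genes were lower in the pulldown than in the input. Input and pulldown come from 1 culture, and with the culture as a block 4 of 4 were lower with both baits, where 22.6% and 17.5% of genes were. Without replicate 2, and likewise without replicate 3, 0 of 4 passed with either bait, and calls over all genes were then 0 to 1109 where they had been 3258 and 1240.

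After KCl, 0 of 4 were lower in the pulldowns of either bait, against 4.38% of genes with TurboID-PSD95 and 3.62% with Pan-TurboID. At an unadjusted p below 0.05 the count was also 0 of 4 with each bait, and DESeq2 gave 0. The estimates were -0.56 ± 0.314, -0.35 ± 0.301, -0.37 ± 0.281 and -0.20 ± 0.33 with TurboID-PSD95 and -0.32 ± 0.313, -0.28 ± 0.301, -0.13 ± 0.282 and 0.17 ± 0.33 with Pan-TurboID, for Egr1 to Egr4. With the culture as a block, Egr1 was lower with TurboID-PSD95, at -0.65 ± 0.153 (adjusted p = 0.00213), where 17.4% of genes were.

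**Figure D4:**
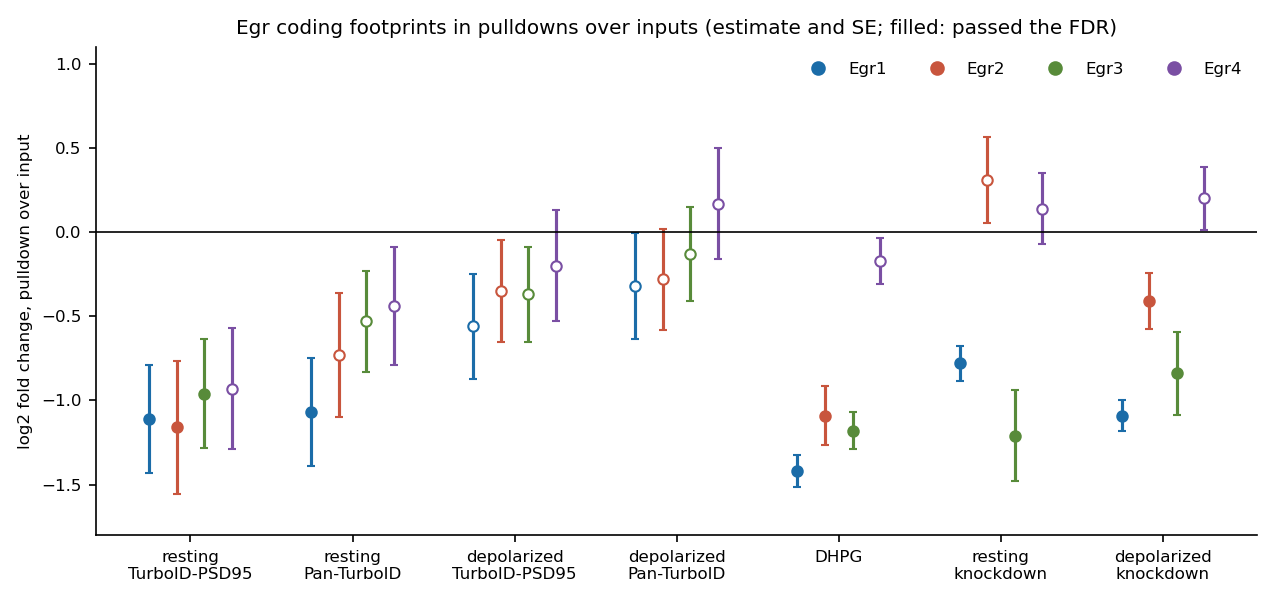
Log2 fold change of CDS footprints, pulldown over input, for the 4 Egr genes in 7 conditions, with standard errors as bars, filled points for results past the FDR of 0.05 and open points for the others. Egr1 lies below 0 in the 7 conditions, from -1.42 after DHPG to -0.32 in depolarized Pan-TurboID neurons, and Egr4 is open throughout. The fits shown have no block by culture. With that block, Egr4 was lower in resting pulldowns of TurboID-PSD95 and Pan-TurboID (edgeR, adjusted p = 7.23e-05 and 0.0431).

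The KCl response did not differ detectably between dendritic pulldowns and their inputs or between the baits. The response of TurboID-PSD95 pulldowns minus that of their inputs was 0.55 ± 0.447 for Egr1, 0.81 ± 0.498 for Egr2, 0.59 ± 0.427 for Egr3 and 0.73 ± 0.487 for Egr4 (log2, SE). In edgeR 0 of 4 and 0% of the 13003 genes passed, where 236 genes had an unadjusted p below 0.05, and DESeq2 gave 0 of 4. With the culture as a block the smallest p was that of Egr4, 0.00272 (adjusted p = 0.941). The response of TurboID-PSD95 pulldowns minus that of Pan-TurboID pulldowns was -0.21 ± 0.448, 0.13 ± 0.506, 0.48 ± 0.428 and -0.02 ± 0.49, with 0 of 4 and 0% of all genes past the FDR, 0 of 4 at an unadjusted p below 0.05 and 0 of 4 with DESeq2.

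In DHPG inputs the make-up of the family differed from that of the resting TurboID-PSD95 inputs, which come from the KCl experiment. Egr3 was higher and Egr1 lower. Egr3 stood at 53.13, 59.93 and 51.18 CPM in DHPG inputs, above the resting TurboID-PSD95 inputs and within the range of the depolarized ones. Egr1 stood at 89.24, 94.87 and 79.36 CPM, below each resting input. Egr2 stood at 13.64, 11.18 and 11.66 CPM and Egr4 at 43.52, 34.32 and 36.77 CPM, both overlapping rest.

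Against the resting TurboID-PSD95 inputs, 2 of 4 differed, where 32.8% of 12787 genes did: Egr3 was higher by 2.20 ± 0.177 (adjusted p = 3.79e-07, rank 58 by fold change) and Egr1 lower, at -1.11 ± 0.217 (0.00145). Egr2 stood at 0.57 ± 0.343 and Egr4 at 0.06 ± 0.351, and without resting replicate 2 Egr2 was higher, at 1.09 ± 0.329 (0.0231). Pulldowns gave 2 of 4, against 47.7% of genes, with Egr3 at 1.96 ± 0.201, Egr1 at -1.45 ± 0.229, Egr2 at 0.61 ± 0.389 and Egr4 at 0.79 ± 0.376, and DESeq2 called Egr4 too (adjusted p = 0.0467). The resting libraries come from the KCl experiment, so DHPG and experiment cannot be told apart. Markers of other cells moved with the comparison: 5 of 6 astrocyte markers tested, 5 of 7 oligodendrocyte markers and 4 of 5 endothelial and fibroblast markers were lower in DHPG inputs, where 16.5% of all genes were. Their summed levels were 90.67 to 92, 44.54 to 47.93 and 36.28 to 36.76 CPM in DHPG inputs and 310.2 to 808.3, 243.9 to 608.6 and 276.4 to 489.5 CPM in resting inputs of both baits. The astrocyte marker S100b had no footprint in DHPG libraries, and the oligodendrocyte marker Mog had none in either set of inputs. Their part in the result was not tested.

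Within the DHPG experiment, pulldowns held 26.76, 27.17 and 30.74 CPM of Egr1, 5.71, 4.391 and 4.913 CPM of Egr2, 19.27, 23.79 and 19.65 CPM of Egr3 and 22.84, 28.82 and 35.65 CPM of Egr4. The pulldowns lay below the inputs without overlap for Egr1, Egr2 and Egr3, while Egr4 overlapped. Against input 3 of 4 were lower, where 39.3% of 12257 genes were, with -1.42 ± 0.0949 for Egr1, -1.09 ± 0.177 for Egr2, -1.18 ± 0.109 for Egr3 and -0.17 ± 0.136 for Egr4. Without replicate 3, Egr4 was lower too, at -0.41 ± 0.127 (adjusted p = 0.00362). Per kb, the order in each DHPG input was Egr1, Egr3, Egr4, Egr2, with 40%, 34.3%, 19.4% and 6.28% of the summed level. In the pulldowns Egr4, Egr3 and Egr1 were near each other by group mean, at 34.1%, 30.2% and 29.7%, with Egr2 at 5.97%, and their order was not the same in each library.

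With siRNA against eIF4G2, the resting inputs held 121.4 and 125.1 CPM of Egr1, 8.044 and 9.165 CPM of Egr2, 28.31 and 23.68 CPM of Egr3, and 29.39 and 34.62 CPM of Egr4. The depolarized inputs held 1048 and 1050 CPM of Egr1, 169.3 and 159.6 CPM of Egr2, 56.26 and 58.88 CPM of Egr3, and 123.4 and 121.2 CPM of Egr4. At rest Egr3 lay above and Egr1 below the TurboID-PSD95 inputs without knockdown, and Egr2 and Egr4 overlapped them. After KCl Egr1, Egr2 and Egr4 lay below those inputs and Egr3 overlapped them.

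Against no knockdown, 1 of 4 differed at rest, where 3.89% of 13180 genes did, and this was Egr3 at 1.04 ± 0.284 (adjusted p = 0.0379). Leaving out any 1 of its 5 libraries ended this call, with adjusted p of 0.0821 to 0.361. After KCl 1 of 4 differed, where 5.3% of genes did, Egr1 at -1.17 ± 0.312 (0.0305), with Egr4 at -1.23 ± 0.382 (0.0636). For Egr1 the call was lost without depolarized TurboID-PSD95 input replicate 2 or 3 or without either knockdown library, with adjusted p up to 0.229. Both comparisons share the libraries without knockdown with the KCl experiment, and knockdown and experiment cannot be told apart.

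Cell type markers moved with these comparisons. Of 8 neuronal markers 3 were lower with knockdown in either condition, with medians of -0.80 at rest and -0.88 after KCl. Their summed level overlapped, at 8143 to 8347 CPM in resting knockdown inputs and 7663 to 8637 CPM in resting inputs of both baits without knockdown. After KCl it was 6261 to 6457 CPM and 5907 to 10580 CPM. Over all genes 2% were lower and 1.89% higher at rest, and 2.12% and 3.17% after KCl. Of 4 microglia markers tested 1 was higher in either condition, with medians of 4.43 and 4.77, and DESeq2 called 0 at rest and 1 after KCl. Their summed level was 13.15 to 17.18 CPM in resting knockdown inputs and 1.3 to 3.82 CPM in resting inputs of both baits without knockdown, and 15.81 to 25.73 CPM and 1.279 to 5.741 CPM after KCl. At rest, 1 of 6 endothelial and fibroblast markers (median -2.64) and 1 of 7 oligodendrocyte markers (median -1.01) were lower, and no footprint was seen for Mog in these inputs. Of 6 astrocyte markers 0 passed in edgeR or DESeq2, with 0 at rest and 2 after KCl at an unadjusted p below 0.05 and medians of -0.02 and 0.78. The part of these markers in the Egr values was not tested.

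The KCl response itself, knockdown minus no knockdown, was -0.47 ± 0.428, -0.19 ± 0.454, -1.15 ± 0.402 and -0.94 ± 0.529 in inputs for Egr1 to Egr4. None of the 4 passed, where 0.00759% of genes did, and 1 of 4, Egr3, had an unadjusted p below 0.05. In pulldowns the differences were -1.30 ± 0.439, -1.72 ± 0.508, -1.35 ± 0.448 and -1.61 ± 0.553. None passed, where 0.448% of genes did, while 4 of 4 had an unadjusted p below 0.05 and adjusted p ran from 0.176 to 0.313. DESeq2 gave 0 of 4 in both. Without depolarized TurboID-PSD95 pulldown replicate 1, 2 of 4 passed in pulldowns, and with the replicate number as a block within each experiment 1 of 4 passed, Egr4 at -1.63 ± 0.331 (adjusted p = 0.014). The ratio of mean CPM in pulldowns, knockdown over none, was 0.7187, 2.674, 1.569 and 1.632 at rest for Egr1 to Egr4. After KCl it was 0.2871, 0.7945, 0.6304 and 0.5317. For Egr2 the depolarized ranges overlapped, and the resting ones lay apart at low means of 10.39 and 3.883 CPM.

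Pulldowns of the knockdown held 61.82 and 72.16 CPM of Egr1, 8.39 and 12.38 CPM of Egr2, 9.494 and 11.53 CPM of Egr3 and 24.51 and 43.55 CPM of Egr4 at rest. After KCl they held 465.1 and 451.8, 116.8 and 113.3, 32.84 and 26.8, and 136.7 and 125.5 CPM. Egr1 and Egr3 lay below their inputs in both conditions, and Egr4 did in neither. At rest 2 of 4 were lower than input, where 23.4% of genes were, Egr1 at -0.78 ± 0.106 and Egr3 at -1.21 ± 0.271. After KCl 3 of 4 were lower, where 24.8% of genes were, with -1.09 ± 0.0915 for Egr1, -0.41 ± 0.165 for Egr2 (adjusted p = 0.0413) and -0.84 ± 0.247 for Egr3. The Egr2 call was lost without any 1 of the 4 libraries and with DESeq2 (-0.40, adjusted p = 0.0744). Egr4 stood at 0.14 ± 0.211 at rest and 0.20 ± 0.185 after KCl.

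Across the 14 group means, the order of levels put the 6 depolarized groups on top for Egr1, Egr2 and Egr4, and the DHPG inputs at rank 3 for Egr3, with 54.75 ± 4.596 CPM (SD, n = 3). The gap below the depolarized groups was wide for Egr2, from 115.1 ± 2.504 CPM in depolarized knockdown pulldowns to 12.16 ± 1.303 CPM in DHPG inputs, and their ranges lay apart. Neighbours in the order mostly overlapped: of the 4 groups at the top, none differed from the next beyond its range for Egr1, Egr2 and Egr3. Egr1 was lowest in DHPG pulldowns, at 28.23 ± 2.188 CPM, apart from the next group, and the other 3 genes were lowest in resting pulldowns of the KCl experiment.

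By Pearson correlation of log2(CPM + 1) over the 14 group means, among 13003 genes, the patterns most like Egr1 were those of Junb (r = 0.996) and Fosb (0.981), AP-1 subunits, and of Spty2d1 (0.980), a histone chaperone. Egr2 was nearest to Egr4 (0.978), Gadd45g (0.970), a stress response gene, and Tiparp (0.960), an ADP-ribosyltransferase. Egr4 was nearest to Egr2, Ier2 (0.958) and Gadd45g (0.955). Egr3 had no family member among its 3 nearest genes, which were Stmn4 (0.974), a stathmin that acts on microtubules, Shisal1 (0.970) and Psma2 (0.960), a proteasome subunit. Its r was 0.809 with Egr2, 0.806 with Egr4 and 0.696 with Egr1, at ranks 89, 92 and 285 of 13003. The groups share cultures and experiments, and these values describe the pattern.

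The genes around the Egr factors were read from lists chosen with earlier results of these data known. Of 19 upstream regulators tested in inputs after KCl, 1 rose, Mrtfb, a coactivator of serum response factor, at 0.39 ± 0.123, and 2 fell, Rps6ka3, an ERK-activated kinase, at -0.75 ± 0.187 and Mef2d, a transcription factor, at -0.47 ± 0.148. The list's median log2 fold change was 0.05, and 6.32% of all genes rose and 9.02% fell in this comparison, so the list is near the background. Neither corepressor passed, Nab1 standing at -0.28 ± 0.226 (adjusted p = 0.455) and Nab2 at 0.19 ± 0.281 (0.715), and both were at 14.72 to 71.82 CPM in these inputs. Both were lower than input in resting TurboID-PSD95 pulldowns, at -0.97 ± 0.325 (adjusted p = 0.031) and -1.14 ± 0.414 (0.0448), where 13.5% of all genes were. Calls over all genes in that comparison went from 3258 to 1109 without replicate 2 and to 0 without replicate 3. After DHPG, Nab1 was lower than in resting inputs, at -1.18 ± 0.243, and Nab2 stood at 0.58 ± 0.238 (adjusted p = 0.0713).

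Of 10 proposed Egr targets, 2 rose in inputs after KCl, Arc, a synaptic plasticity gene that is itself an immediate early gene, at 3.48 ± 0.203 and Vegfa, an angiogenic growth factor, at 1.26 ± 0.171, with a median of 0.13. Of 18 other immediate early transcription factors 14 rose, with a median of 2.38, and the smallest p-values were those of Ier2 at 2.58 ± 0.186, Junb at 3.78 ± 0.264 and Npas4, an activity-dependent factor of neurons, at 2.55 ± 0.209. Of 8 zinc finger factors with like binding sites 1 rose, Klf10 at 1.22 ± 0.264. The counts of targets and zinc finger factors stand beside 6.32% of all genes that rose. Against rest, DHPG inputs had 1 of 17 other immediate early factors higher and 13 lower, with a median of -1.28, where 16.3% of all genes were higher and 16.5% lower, while Arc was higher at 1.30 ± 0.21. Egr3 and Arc were thus above the resting inputs there while Egr1, Junb (-0.91 ± 0.218) and Npas4 (-2.81 ± 0.221) were below. These resting inputs come from the KCl experiment, so DHPG and experiment cannot be told apart. The paper, with qPCR of Arc, Fos and Jun, reports that early gene expression was similar after KCl and DHPG.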

How the data were processed

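The 38 libraries fell into 14 groups by their labels, with the bait of the DHPG and knockdown libraries taken from the virus field. According to the methods, the authors trimmed reads, removed molecular identifiers, aligned reads over 20 nt to mm10 with Rsubread and counted footprints with plastid. Per the file headers, 5′ ends were counted with no offset for lengths of 25 to 100 nt. Each deposited file gives raw counts for the CDS, 5′ UTR or 3′ UTR segments of transcripts. Use of strand and of reads with several alignments is not given in the sources used here.

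Counts were summed over 1 transcript per gene, the longest. Of 67238 coding transcripts 66664 matched a gene name. CPM used each library's CDS total. Counts were tested with edgeR 4.0.16 (quasi-likelihood, robust, TMM, filterByExpr, Benjamini-Hochberg, FDR 0.05) in R 4.3.3, with 24, 6 and 8 libraries within the KCl, DHPG and knockdown experiments, 12 for DHPG against rest and 20 for knockdown against none. 5′ UTR counts kept the CDS library sizes and factors. Shares were compared by exact permutation tests over libraries. DESeq2 1.42.0 was an alternative. The fits were tested on simulated data. The 4 genes were named in each comparison, with Nab1 and Nab2, up to 3 genes per list and direction with the smallest p in KCl inputs, and the 3 most alike genes. Members and lists were chosen with earlier results of these data known. Inputs and pulldowns of 1 culture deviated together in 12 of 12 cultures of the KCl experiment (r of residuals 0.153 to 0.501), so the culture block is given there. The 3′ UTR counts of the 4 genes were 0.094% to 2.9% of their footprints and entered 1 alternative.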

Additional observations from a re-analysis of the deposited data

Results flagged for a closer look

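Egr2 footprints in pulldowns relative to inputs ran in opposite directions in 2 pairs of groups. In the resting knockdown group the ratio of mean CPM was 1.207, with the pulldown above the input of its number in 2 of 2 cultures. In the resting TurboID-PSD95 group without knockdown it was 0.434, and in the depolarized knockdown group it was 0.6997, with the pulldown below the input in 3 of 3 and in 2 of 2. In the resting knockdown group the fitted log2 fold change was 0.31 ± 0.256 (edgeR adjusted p = 0.339) and the ranges of pulldowns and inputs overlapped, so no increase was called there. The difference between the groups was not tested. The resting knockdown pulldowns held 38 and 29 Egr2 footprints, and the resting TurboID-PSD95 pulldowns held 8 to 23, so counting error is large.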

How the results depend on the processing

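The 20 KCl responses of CDS footprints, in inputs, in pulldowns and in the knockdown, kept their direction and side of the FDR in 208 of 208 alternative values. Over all 108 results for single genes, 1012 of 1116 alternative values kept both, 63 were no longer past the threshold, 25 came past it and 16 changed sign. In these, the cause was not tested.

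Counts of Egr genes moved as follows. Resting TurboID-PSD95 pulldowns over input gave 4 in place of 3 with DESeq2, the likelihood ratio test, the replicate block and the block by culture, 1 with the compared groups alone and 0 to 3 leaving out a replicate, and depolarized ones gave 1 with the number as a replicate block and 1 with the block by culture. Resting Pan-TurboID pulldowns over input gave 0 with no filter on low counts, 4 with the block by culture and 0 to 1 leaving out a replicate. Resting knockdown inputs against none gave 0 to 0 leaving out a replicate. Depolarized ones gave 2 with no filter, the likelihood ratio test, DESeq2 and the compared groups alone, and 0 to 1 leaving out a replicate. The difference of the KCl response in pulldowns with knockdown gave 1 with no filter, 1 with the block within experiment and 0 to 2 leaving out a replicate. Leaving out a replicate, the 5′ UTR response of inputs gave 2 to 3, DHPG pulldowns over input gave 3 to 4 and DHPG inputs against rest gave 2 to 3. With DESeq2, DHPG pulldowns against rest gave 3 in place of 2, and depolarized knockdown pulldowns over input gave 2 in place of 3. The 5′ UTR response of TurboID-PSD95 and of Pan-TurboID pulldowns gave 0 to 3 each, and both shares gave 0 to 0. With 4 libraries against 4, an exact permutation p cannot fall under 0.0286 before adjustment, and not all tests reached that floor.

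Per the methods, resting and activated samples of a replicate were handled together, and residuals of same-numbered libraries from different cultures of the KCl experiment deviated together in some pairs and not in others (r -0.187 to 0.524, above 0.1 in 24 of 72 pairs). With the number as a block, paired permutation of shares gave an adjusted p of 0.02469 for Egr1 and Egr2 in inputs, and Egr3 came past the FDR in the 5′ UTR response of inputs, where the count went from 3 to 4, as it did with RLE factors, the likelihood ratio test and DESeq2. Over all genes the block took calls in the 5′ UTR responses from 45 to 143 in inputs, from 28 to 212 in TurboID-PSD95 pulldowns and from 13 to 46 in Pan-TurboID pulldowns.

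Signs changed only for results that had not passed. Leaving out a replicate, values ran from -0.41 to 0.46 for Egr2 and -0.13 to 0.14 for Egr4 in the response difference between the baits, from -0.41 to 0.05 for Egr4 in DHPG pulldowns over input, and from -0.25 to 0.26 for Egr4 in DHPG inputs against rest. They ran from -0.28 to 0.53 for Egr4 in resting knockdown pulldowns over input, from -0.37 to 0.53 for Egr2 in resting knockdown inputs against none, which was also -0.00122 with the likelihood ratio test and -0.02 with the compared groups alone, from -0.33 to 0.08 for Egr3 in depolarized knockdown inputs against none and from -0.69 to 0.19 for Egr2 in the response difference of inputs with knockdown. Share differences ran from -6.59 to 1.24 points for Egr3 and -5.82 to 1 for Egr4 in inputs and, in pulldowns, from -12.5 to -4.28 for Egr3 with no change of sign and from -8.44 to 4.15 for Egr4. The fit of the compared groups alone, the block by culture and the first exon share were added after seeing the data. At rest Egr2 rested on 8 to 73 footprints a library in the KCl experiment, which limits its resting level.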
